A study of Mus musculus with 30 samples.

Results

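The metabotropic glutamate receptors are G protein-coupled receptors that answer glutamate on a slower time scale than the ion channels it opens. The members described here were found by gene symbol, as Grm2 to Grm8; the rule uses no measured value, although the family was picked with earlier results of these data known. These are 7 named genes, of which 6 (Grm2, Grm3, Grm4, Grm5, Grm7 and Grm8) had a row among the 19737 genes of the table. Grm6, the receptor of retinal ON bipolar cells, was not analysed here. The 6 genes passed the filter on low values in every comparison.

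Whole-brain RNA was measured by poly-A RNA sequencing in 30 libraries from male C57BL/6N mice, with 5 libraries in each of 6 groups. Arid1b encodes a subunit of the BAF chromatin remodelling complex, and heterozygous mice (HT) carried 1 targeted allele of it, in which exon 5 was removed with a Cas9 nickase; all animals came from HT males crossed to WT females. The P10 WT and P10 HT mice were untreated and were taken at postnatal day 10. In the other 4 groups, WT-Veh, HT-Veh, WT-Flx and HT-Flx, dams drank water with 0.2% saccharin from day 3 to day 21, with fluoxetine at 0.1 mg/ml for the Flx groups and without it for the Veh groups, so that pups received the drug through milk, and brains were taken at day 120. Fluoxetine is a selective serotonin reuptake inhibitor. A level in whole brain sums over cell types, and fewer cells of a type cannot be told apart from less RNA per cell.

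Receptors of group I, here Grm5, couple to Gq and phospholipase C, and act mainly on the postsynaptic side beside Homer and Shank scaffolds. Those of group II, Grm2 and Grm3, and of group III, Grm4, Grm7 and Grm8, couple to Gi/o, lower cyclic AMP and mostly restrain release from axon terminals. Grm3 is also known from astrocytes, and Grm4 is abundant in cerebellar granule cells, whose parallel fibre terminals it controls. Grm5 is a known receptor of early postnatal astrocytes and of forebrain neurons.

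Arid1b itself was lower in the P10 HT libraries, at 2162 to 2334 normalized counts (deposited read counts divided by the normalization factors of the authors), than in the P10 WT libraries, at 3164 to 3309. At P120 the 5 HT-Flx libraries held 2164 to 2616 and the 5 WT-Flx libraries 2961 to 3392. The library labelled HT-Veh replicate 2 held 3361, and the library labelled WT-Veh replicate 2 held 2320, so these libraries went against their labels. All 6 pan-neuronal markers were present in every library. The libraries also differed in a balance that concerns every gene: the median deviation of 3702 genes with a transcript GC content of at least 55% minus that of 3347 genes at 45% or below, on the log2 scale, lay between 0.47 and 1.38 in HT-Flx and between -0.74 and -0.57 in WT-Flx. In the vehicle groups it spanned -0.73 to 0.74 for HT-Veh and -0.49 to 0.29 for WT-Veh. At P10 it lay between -1.02 and -0.69. Normalized counts summed to 37083545 to 41522113 per HT-Flx library, against 32484635 to 33588499 for WT-Flx. Read depth is unknown, so no counting interval is given.

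Levels were compared between genes as normalized counts per kb of the longest protein-coding transcript. In P10 WT brain, Grm4 stood at 939 ± 78.1 per kb and Grm5 at 863 ± 33.9 (SD, n = 5), and their ranges over libraries overlapped. Below them came Grm3 at 487 ± 33.1 and Grm7 at 448 ± 16.1, which also overlapped, then Grm2 at 336 ± 15.5 and Grm8 at 138 ± 12.2, which overlapped with no other member. In P120 WT-Veh brain the order per kb was Grm4 at 966 ± 284, Grm5 at 460 ± 190, Grm2 at 417 ± 45.5, Grm3 at 379 ± 75.6, Grm7 at 347 ± 54.4 and Grm8 at 99.1 ± 19.2. From Grm4 down to Grm7 the ranges of neighbouring genes overlapped over libraries. Grm4 and Grm5 were not set apart by the spread, and neither were Grm5, Grm2, Grm3 and Grm7 from each other. Grm4, at 591 per kb or more, lay above every library of Grm2, Grm3 and Grm7, and Grm8 lay below all other members. In HT-Flx brain, Grm4 reached 1583 ± 162 per kb and Grm2 651 ± 128, while Grm5 stood at 261 ± 111.

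**Figure D1:**
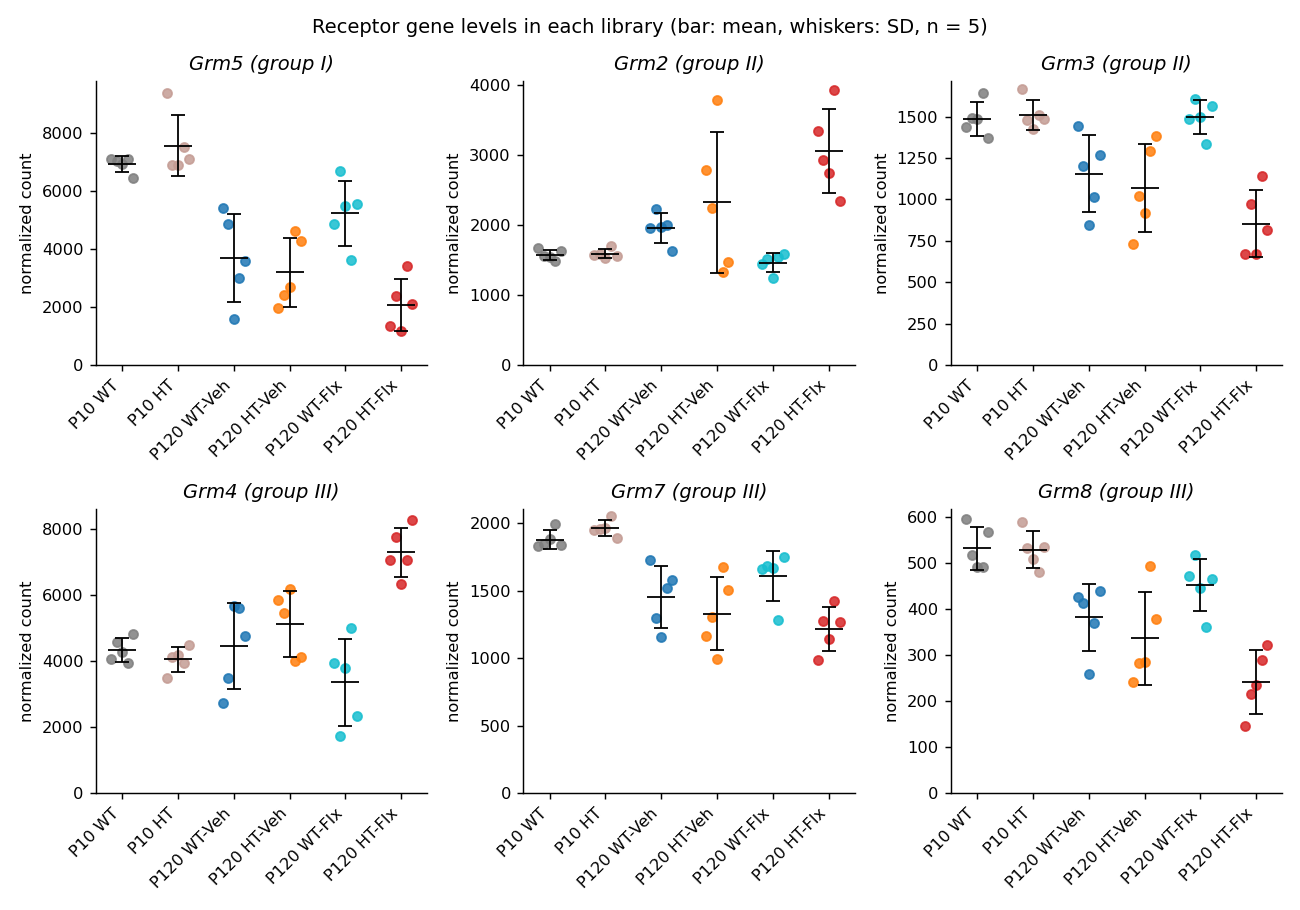
Normalized count (vertical axis, from 0) of 6 receptor genes in each of 30 libraries, by group (horizontal axis); points are libraries, the bar is the mean and the whiskers are 1 SD (n = 5). The 5 HT-Flx libraries lie above all WT-Flx libraries for Grm2 and Grm4 and below all of them for Grm3, Grm5 and Grm8.

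The pair of group II genes differed in the region before their start sites as well as in their values, and these regions are shown because Grm2 and Grm3, the closest relatives in the set, took opposite directions at P120. The 250 bases before each start site were read from RefSeq promoters of GRCm38.p6, which held entries for 5 of the 7 named genes and none for Grm4 and Grm5. Grm2 (ENSMUSG00000023192) lies on the minus strand of chromosome 9, from 106643095 to 106656082, and its window is chr9:106656110-106656359. Grm3 (ENSMUSG00000003974) lies on the minus strand of chromosome 5, from 9485541 to 9725170, and its window is chr5:9725353-9725602. Both windows end just before a RefSeq start site and are read 5′ to 3′ on the strand of the gene, with matches to the GC box (GGGCGG on either strand) in capitals.
Grm2: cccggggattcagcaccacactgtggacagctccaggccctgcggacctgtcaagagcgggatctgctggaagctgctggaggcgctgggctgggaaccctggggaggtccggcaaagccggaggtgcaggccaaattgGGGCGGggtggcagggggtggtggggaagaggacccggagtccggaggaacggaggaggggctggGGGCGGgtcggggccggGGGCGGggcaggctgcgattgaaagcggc
Grm3: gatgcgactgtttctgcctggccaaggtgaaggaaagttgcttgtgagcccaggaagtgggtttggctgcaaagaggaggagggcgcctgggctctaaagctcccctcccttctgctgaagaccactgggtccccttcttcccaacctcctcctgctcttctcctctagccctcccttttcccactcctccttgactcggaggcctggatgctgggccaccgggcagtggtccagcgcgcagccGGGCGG
The Grm2 window held 3 GC boxes and a GC content of 71.2%, and the Grm3 window 1 GC box and 62.4%. Grm7 and Grm8 were lower in HT-Flx than in WT-Flx, as Grm3 was. The Grm7 windows held 62% and 65.2% GC with 1 GC box each. The Grm8 windows held 68.4% GC with 1 GC box, and 54.4% and 43.6% with 0. The part of these regions in the directions at P120 was not tested. Of all 32851 windows of this length, 32.7% held a GC box, and the median GC content was 52.4%. Neither window held a TATA box (TATAAA, in 12.4% of all windows), a cAMP response element (TGACGTCA, in 1.55%) or an E box (CACGTG, in 6.02%). The transcripts differ in the same direction, with a GC content of 56.9% in the longest coding transcript of Grm2 and 47.6% in that of Grm3.

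The first comparison asked whether loss of 1 Arid1b allele changed the receptor genes in the young brain. At P10 none of the 6 receptor genes passed limma at an adjusted p under 0.05 between HT and WT, where 0.0224% of 17896 genes passed, and all 6 overlapped between the groups, as all but 3.12% of genes did. Grm5 had the largest difference of the 6, from 6941 ± 273 in WT to 7578 ± 1047 in HT (SD, n = 5), a log2 difference of 0.12 ± 0.07 (SE) with a limma adjusted p of 0.503. That value rested on P10 HT replicate 1, at 9395 against 6907 to 7539 in the other 4 HT libraries; without it the difference was 0.04. Grm4 stood at 4328 ± 360 in WT and 4044 ± 365 in HT, a log2 difference of -0.10 ± 0.07. The 95% intervals of the log2 differences ran from -0.25 to 0.05 for Grm4, from -0.04 to 0.28 for Grm5 and from -0.09 to 0.11 for Grm2.

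Between P10 and P120, several receptor genes changed in vehicle-treated mice relative to untreated pups. In WT brain, Grm5, Grm7, Grm8 and Grm3 fell and Grm2 rose, 5 of the 6 receptor genes, where 58.3% of 17927 genes passed, 28.9% higher and 29.4% lower at P120. Age here goes with saccharin water and with the P10 and P120 sample sets, and these cannot be told apart. The balance of GC-rich against GC-poor genes (GC balance) lay at -0.75 to -0.69 in P10 WT and -0.49 to 0.29 in WT-Veh, without overlap. In HT it overlapped, at -1.02 to -0.71 in P10 HT and -0.73 to 0.74 in HT-Veh. In WT, 47.4% of genes at 55% GC or above were higher at P120 and 18.2% lower. Of those at 45% or below, 11.2% were higher and 42.3% lower. Age and this balance cannot be told apart in WT. The untreated pups of a genotype served as the reference for that genotype only.

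Grm5 (ENSMUSG00000049583, plus strand of chromosome 7, 87584168 to 88134907) held 7117, 7049, 6946, 7121 and 6469 normalized counts in the P10 WT libraries and 5437, 4887, 1598, 2996 and 3597 in the P120 WT-Veh libraries. The ages did not overlap, and the adult libraries spread over a wider range than the young ones. The log2 difference was -1.03 ± 0.25 (SE), with a limma adjusted p of 0.00347. In HT the fall was -1.31 ± 0.21, with a limma adjusted p of 0.00027, from a mean of 7578 to 3209. With transcript GC content and length corrected for, the fall in Grm5 was -0.62 in WT and -0.67 in HT, and both passed the threshold, at limma adjusted p of 0.0121 and 3.68e-05.

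Grm7, a presynaptic receptor with a low affinity for glutamate, fell by 0.38 on the log2 scale in WT and by 0.59 in HT. Grm8, of the same group, fell by 0.50 in WT and by 0.70 in HT. Grm7 did not overlap between ages in either genotype, and Grm8 did not in WT, where 45.6% of all genes in WT and 40.2% in HT showed no overlap. Grm3 fell by 0.38 in WT, with a limma adjusted p of 0.016, and by 0.53 in HT. With the correction for GC content and length, the Grm3 difference was -0.18 in WT and -0.20 in HT, and neither passed. Grm2 rose by 0.30 ± 0.08 in WT, with a limma adjusted p of 0.00526, and this too did not pass with the correction, where it was 0.05.

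In HT, 4 of the 6 receptor genes passed, all lower at P120, where 51.1% of 17989 genes passed, 25.8% higher and 25.3% lower. Grm2 differed by 0.44 ± 0.24 and Grm4 by 0.32 ± 0.14, and neither passed. Both passed without HT-Veh replicate 4, at 0.61 and 0.40, and Grm4 also without HT-Veh replicate 5, at 0.39. These replicates were the lowest of HT-Veh in Grm2, Grm4 and GC balance, so leaving either out raises the differences. With the GC and length correction the Grm4 difference in HT changed sign. Grm4 (ENSMUSG00000063239, minus strand of chromosome 17, 27422387 to 27521403) had the same level in young and adult WT brain within its spread, 4328 ± 360 and 4452 ± 1307. WT-Veh replicates 1 and 2 were low in cerebellar granule cell markers and were the lowest in Grm4 of their group, at 2721 and 3492. Without them the Grm4 difference with age in WT was 0.31 ± 0.08, with a limma adjusted p of 0.0089. Leaving out the lowest adult libraries raises this difference by itself, so that value is no test of a change with age.

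The comparison of HT-Flx with WT-Flx asked how fluoxetine-treated mice of both genotypes differed as adults. All 6 receptor genes passed: Grm2 and Grm4 were higher in HT-Flx, and Grm3, Grm5, Grm7 and Grm8 were lower. In this comparison 63.7% of 17799 genes passed, 33.1% higher and 30.5% lower, so that passing alone says little about a receptor gene. Each of the 6 calls held with every library left out in turn. The GC balance of the libraries did not overlap between these groups, and the values that bear on it follow the description of each gene.

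Grm5 held 1365, 2403, 1191, 3425 and 2100 in the HT-Flx libraries, against 4871, 6691, 5493, 3625 and 5550 for WT-Flx. Every HT-Flx library was below every WT-Flx library. The log2 difference was -1.40 ± 0.26 (SE; 95% interval -1.96 to -0.84), 0.38 of the WT-Flx level, with a limma adjusted p of 0.000478. Its size exceeded that of 97.2% of all tested genes. The exact permutation test over mice gave p = 0.00794, two-sided, which is the smallest that 5 and 5 libraries can give.

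Grm2, a presynaptic autoreceptor of group II, held 3353, 2938, 2754, 3927 and 2354 in HT-Flx, against 1442, 1523, 1241, 1545 and 1585 for WT-Flx. The groups did not overlap. The difference was 1.05 ± 0.13 on the log2 scale, a 2.06-fold higher level, with a limma adjusted p of 4.44e-05, and its size exceeded that of 89.1% of tested genes. Of 7 genes listed as markers of forebrain glutamatergic neurons, 3 were higher and 0 lower in HT-Flx, beside 33.1% higher and 30.5% lower of all tested genes. Their summed level was 48780 to 100271 in HT-Flx, against 34025 to 44940 for WT-Flx. The 6 adult libraries with the highest sum were the 6 highest in Grm2, and they also had the highest GC balance. Most of that sum was Slc17a7, at 22794 to 90993 over the 30 libraries, where no other of the 7 markers exceeded 3599. The sum is therefore chiefly the level of Slc17a7 and is not read as a level of forebrain neurons. The part of these markers in the Grm2 result was not tested.

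Grm3, its group II relative, moved the other way, with 673, 975, 672, 1139 and 816 in HT-Flx, against 1483, 1606, 1498, 1336 and 1565 for WT-Flx. Again no library of either group fell among the others. The log2 difference was -0.84 ± 0.14, 0.56 of the WT-Flx level, with a limma adjusted p of 0.000265. Among 7 astrocyte markers, 4 were lower and 2 higher in HT-Flx, beside 30.5% lower and 33.1% higher of all tested genes. Their sum reached 65860 to 101084 in the HT-Flx libraries, against 107336 to 119924 for WT-Flx. Slc1a2 was the largest part of that sum, at 32519 to 78944 over the libraries, where no other of the 7 exceeded 22887. None of the 7 was at 0 in any library, and the part of these markers in the Grm3 result was not tested.

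Among the group III genes, Grm4 held 7041, 7740, 6323, 7069 and 8280 in HT-Flx, against 3948, 1720, 3788, 5004 and 2328 for WT-Flx. The HT-Flx libraries were the 5 highest of the 20 adult libraries. The difference was 1.21 ± 0.24, a 2.32-fold higher level, with a limma adjusted p of 0.000741. WT-Flx replicates 2 and 5, the lowest in Grm4, were also low in granule cell markers, and without them the difference was 0.78 ± 0.12, with a limma adjusted p of 0.000807.

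Grm8 (ENSMUSG00000024211, minus strand of chromosome 6, 27275119 to 28135178) was the least abundant member, with 145, 215, 236, 290 and 323 in HT-Flx, against 473, 518, 447, 362 and 467 for WT-Flx. The groups did not overlap here either. The log2 difference was -0.95 ± 0.19, with a limma adjusted p of 0.000893. Grm7 (ENSMUSG00000056755, plus strand of chromosome 6, 110645581 to 111567230) held 986, 1277, 1141, 1421 and 1269 in HT-Flx, against 1659, 1684, 1667, 1282 and 1752 for WT-Flx. WT-Flx replicate 4 lay among the HT-Flx libraries, and the other 4 above them. The Grm7 difference of -0.40 ± 0.12 was the smallest of the 6 and exceeded in size that of 37.9% of tested genes, with a limma adjusted p of 0.00858, and without WT-Flx replicates 2 and 5 it was -0.33 with an adjusted p of 0.064. In all, 5 of the 6 receptor genes did not overlap between the groups, where 48.5% of tested genes did not.

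**Figure D2:**
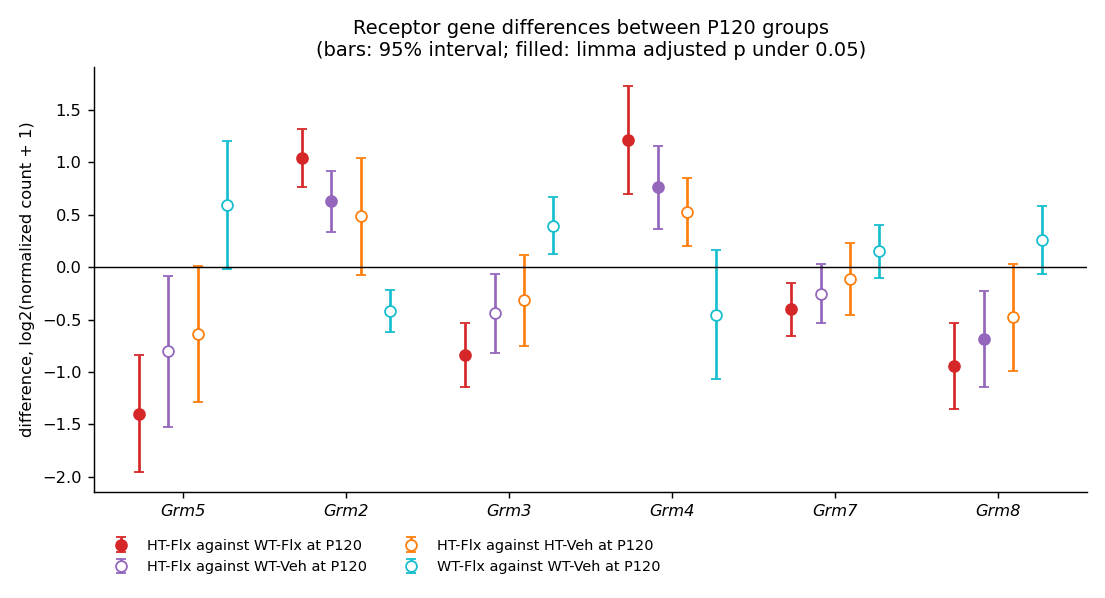
Difference between P120 groups on the log2(normalized count + 1) scale (vertical axis) for 6 receptor genes (horizontal axis) in 4 comparisons (colours); bars are 95% intervals and filled points passed limma at an adjusted p under 0.05. The HT-Flx against WT-Flx points pass for all 6 genes, with Grm2 at 1.05 and Grm4 at 1.21 above 0 and Grm5 at -1.40 the lowest.

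The direction of the 6 receptor genes followed their transcript GC content. Grm4 and Grm2, which were higher in HT-Flx, had a GC content of 61.7% and 56.9% in their longest coding transcripts. Grm7, Grm3, Grm8 and Grm5, which were lower, had 47.8%, 47.6%, 45.9% and 42.5%, and Grm5 had the longest transcript, at 8047 bp. Over all tested genes, 75.8% of those with a GC content of at least 55% were higher in HT-Flx and 0.923% lower, with a median log2 difference of 0.66. Of genes at 45% or below, 74.3% were lower and 2.33% higher, with a median of -0.80. For genes in between, a class that holds Grm7, Grm3 and Grm8, 27.3% were higher and 24.3% lower, and the median was 0.01.

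Across the 20 adult libraries several receptor genes went with the same balance. The 6 libraries highest in Grm2 were the 6 with the highest GC balance, and they were 4 HT-Flx and 2 HT-Veh libraries. Of the 6 libraries lowest in Grm3, Grm5, Grm7 and Grm8, 4 were among those 6 in each case. HT-Veh replicates 1 and 3, which had a GC balance of 0.74 and 0.51, held 2788 and 3788 of Grm2, and HT-Veh replicates 4 and 5, at -0.73 and -0.57, held 1333 and 1481. Grm4 went with the balance less closely: 5 of its 6 highest libraries but 3 of its 6 lowest were those of the balance, and HT-Flx replicate 5, at a balance of 0.47, held 8280, against 5846 and 6173 in HT-Veh replicates 1 and 3.

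**Figure D3:**
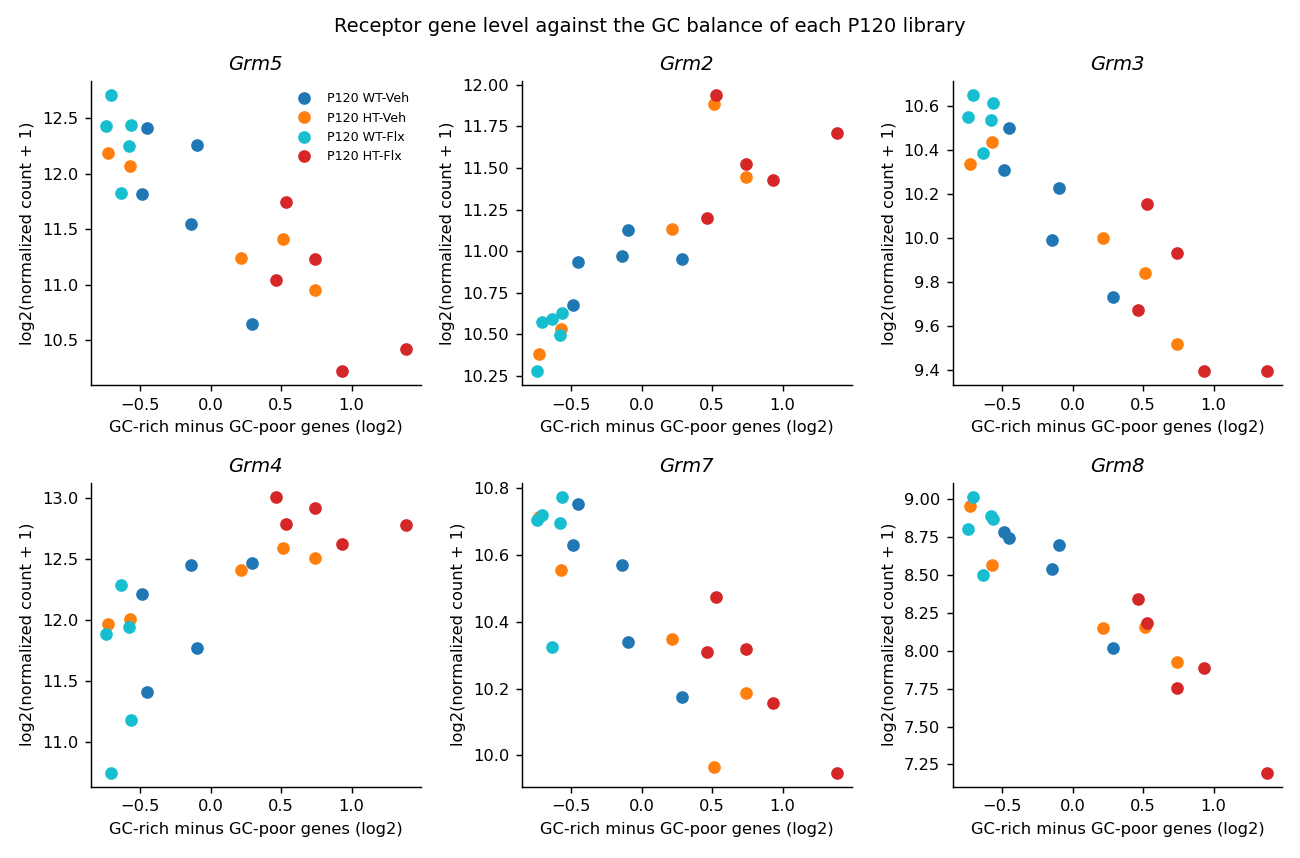
Level of each receptor gene as log2(normalized count + 1) (vertical axes) against the GC balance of each library, the median deviation of GC-rich minus GC-poor genes on the log2 scale (horizontal axes), in the 20 P120 libraries, coloured by group. Grm2 and Grm4 are high where the balance is high, and Grm3, Grm5, Grm7 and Grm8 are low there; the HT-Flx libraries lie between 0.47 and 1.38 and the WT-Flx libraries between -0.74 and -0.57.

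As an alternative added after the values had been seen, genes were sorted into 100 classes by GC content and transcript length, the mean deviation of a class in a library was taken off its genes, and limma was run again. Between HT-Flx and WT-Flx, 4 of the 6 receptor genes still passed, with smaller differences: Grm2 at 0.36 ± 0.10, Grm3 at -0.41 ± 0.11, Grm5 at -0.48 ± 0.16 and Grm8 at -0.43 ± 0.14 (SE), at limma adjusted p of 0.0128, 0.012, 0.0307 and 0.0337. Grm4, at 0.48 ± 0.24, and Grm7, at -0.06 ± 0.09, did not, with limma adjusted p of 0.144 and 0.622. The number of all genes that passed went from 11330 to 6387. Since the GC balance did not overlap between the groups, a genotype difference and a library difference of this kind cannot be told apart in these 10 libraries.

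**Figure D4:**
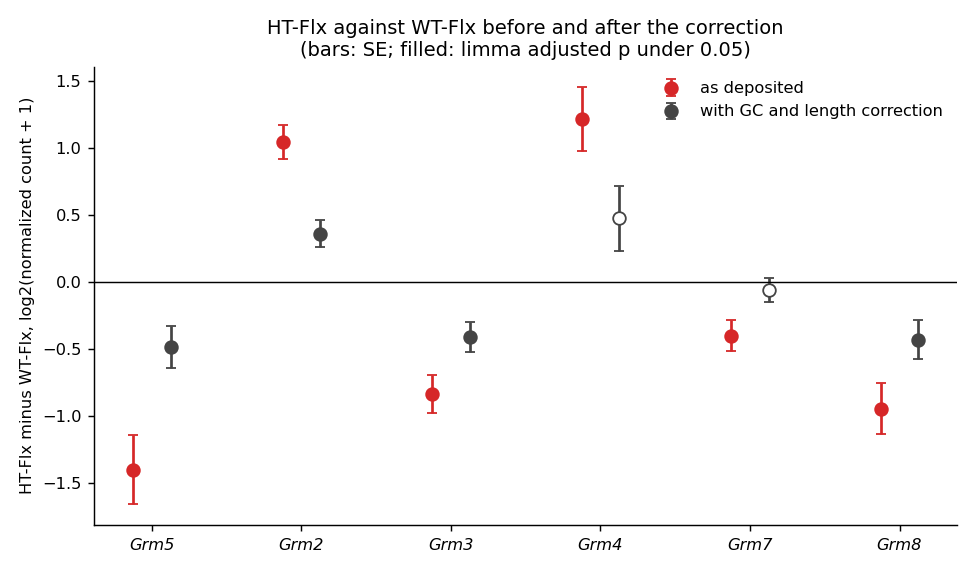
HT-Flx minus WT-Flx on the log2(normalized count + 1) scale (vertical axis) for 6 receptor genes (horizontal axis), as deposited (red) and after the correction for GC content and transcript length (grey); bars are SE and filled points passed limma at an adjusted p under 0.05. The correction brings Grm5 from -1.40 to -0.48 and Grm2 from 1.05 to 0.36, and the open points are Grm4 at 0.48 and Grm7 at -0.06.

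The comparison of HT-Flx with HT-Veh asked what early fluoxetine left behind in the adult HT brain. No receptor gene passed limma with adjustment, nor did any of the 17676 genes, 23.1% of which had an unadjusted p under 0.05; HT-Flx was used in 3 comparisons, which share its libraries. Grm4 held 5846, 5442, 6173, 4008 and 4121 in HT-Veh, every value below the lowest of HT-Flx, 6323. Its difference was 0.53 ± 0.15 (SE; 95% interval 0.21 to 0.85), with a limma adjusted p of 0.215 and an exact permutation p of 0.00794. Grm4 was the only receptor gene without overlap in this comparison, where 1.62% of genes had none. With the correction for GC content and length its difference was 0.15 ± 0.12, and without the library labelled HT-Veh replicate 2 it was 0.56.

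Grm5 in HT-Veh held 1973, 2415, 2717, 4647 and 4295, which overlapped with HT-Flx. Its difference of -0.64 ± 0.30 had an interval from -1.29 to 0.01 and a limma adjusted p of 0.215; with the replicate number as a block it passed, with a limma adjusted p of 0.0484, and 1355 genes passed in place of 0. Grm2, with 2788, 2244, 3788, 1333 and 1481 in HT-Veh, differed by 0.48 ± 0.26, and Grm8 by -0.48 ± 0.24. With the GC and length correction Grm2 was at 0.13, Grm5 at -0.14 and Grm8 at -0.20. In HT-Veh, replicates 1 and 3 were the highest in Grm2 and in GC balance and replicates 4 and 5 the lowest in both, and the spread of Grm2 was 43.3% of its mean in HT-Veh against 10.9% in WT-Veh. Differences of Grm3 and Grm7 were -0.32 ± 0.20 and -0.11 ± 0.16.

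In WT mice, WT-Flx against WT-Veh also gave no receptor gene past adjustment, and none of 17865 genes, although 25.2% had an unadjusted p under 0.05. Grm2 held 1957, 2232, 1983, 2006 and 1633 in WT-Veh, every value above the highest of WT-Flx, 1585, and differed by -0.42 ± 0.09, with a limma adjusted p of 0.0849 and an exact permutation p of 0.00794. This absence of overlap was shared by 6.41% of genes. Grm3 held 1445, 1199, 848, 1017 and 1268 in WT-Veh and was 0.40 ± 0.13 higher in WT-Flx, with a limma adjusted p of 0.11. Without WT-Veh replicate 1 both passed, Grm2 at -0.42 with a limma adjusted p of 0.0411 and Grm3 at 0.48 with 0.0397, and without WT-Veh replicate 5 Grm2 passed at -0.48. Grm4 differed by -0.45 ± 0.28 and Grm5 by 0.60 ± 0.28, signs opposite to those between HT-Flx and HT-Veh. Of the cell type markers none passed here, but all 10 granule cell markers had a negative difference (median -0.52) and all 9 Purkinje cell markers too (median -0.31), while 6 of 7 striatal markers had a positive one (median 0.47), beside a median of 0.00 for all genes; their part in the Grm4 and Grm5 values was not tested. With the GC and length correction, Grm2 was at -0.17 and Grm3 at 0.28, with limma adjusted p of 0.509 and 0.411.

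Whether the fluoxetine difference itself differed between genotypes was tested as an interaction over the 20 adult libraries, where 27.3% of 17796 genes passed, 15.8% with a positive and 11.5% with a negative value. Grm2 and Grm4 passed with a positive interaction, 0.90 ± 0.29 and 0.98 ± 0.34 (SE), and Grm3 and Grm5 with a negative one, -0.71 ± 0.25 and -1.23 ± 0.45, at limma adjusted p between 0.0365 and 0.0471. Grm8, at -0.74 ± 0.30, and Grm7, at -0.26 ± 0.20, did not pass. These calls lay close to the threshold: Grm2 passed in 10 of 20 fits that left out a library, Grm3 in 8, and Grm4 and Grm5 in 7 each. None of the 6 passed without the pair of libraries that went against their labels, with limma adjusted p from 0.0577 upwards, and none passed with the GC and length correction, where the interaction of Grm2 was 0.31 and that of Grm5 -0.49. Single libraries whose removal left none of the 6 past the threshold were HT-Flx replicates 1 and 3, WT-Flx replicates 2 and 3, HT-Veh replicates 4 and 5, and WT-Veh replicates 2, 3 and 4, with receptor gene counts of 0 in each.

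Between HT-Veh and WT-Veh, in the 4 and 4 libraries that the study's gene table for this comparison lists, which leave out the pair against their labels, no receptor gene passed and no gene of 17784 did; 1.29% of genes had an unadjusted p under 0.05. The log2 differences ran from -0.18 ± 0.20 for Grm7 to 0.18 ± 0.30 for Grm2. The interval for Grm5 ran from -0.76 to 0.86 and that for Grm4 from -0.42 to 0.69. The differences between the Flx groups, -1.40 ± 0.26 for Grm5 and 1.21 ± 0.24 for Grm4 (SE), lay outside these intervals, which is not a test of the interaction. Without the pair against their labels, no receptor gene passed for the interaction. With the GC and length correction the differences between the Flx groups were -0.48 and 0.48. All 6 genes overlapped between the groups, and 1.04% of genes did not. With all 5 and 5 libraries none passed either, and Grm5 changed sign, from 0.05 to -0.16.

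HT-Flx against WT-Veh compared fluoxetine-treated HT mice with vehicle-treated WT mice. Grm2 was 0.63 ± 0.13 and Grm4 0.76 ± 0.18 higher, and Grm8 0.68 lower on the log2 scale, 3 of the 6 receptor genes, where 43.3% of 17681 genes passed, 23.4% higher and 19.9% lower; their limma adjusted p were 0.00743, 0.00877 and 0.0214. Grm2 and Grm4 did not overlap, which held for 20.8% of genes. Grm5 held 5437, 4887, 1598, 2996 and 3597 in WT-Veh and differed by -0.80 ± 0.33, with a limma adjusted p of 0.0661, and Grm3 differed by -0.44 ± 0.17, with 0.0561. Without WT-Veh replicates 1 and 2, which were low in granule cell markers, Grm4 was 0.45 higher, with a limma adjusted p of 0.0452, and Grm8, at -0.58, did not pass, with 0.115. Without WT-Veh replicate 3, which had the highest GC balance of its group, all 6 passed, Grm5 at -1.08, Grm3 at -0.55 and Grm7 at -0.33, and without HT-Flx replicate 4 Grm3 and Grm5 passed, at -0.55 and -1.01. Grm8 did not pass without WT-Veh replicate 1 or 5, at -0.64 and -0.63. With the GC and length correction none of the 6 passed, and Grm2 was at 0.19, Grm4 at 0.29 and Grm8 at -0.31.

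Low levels of Grm4 went with low cerebellar granule cell markers. The 4 adult libraries lowest in Grm4, WT-Flx replicates 2 and 5 at 1720 and 2328 and WT-Veh replicates 1 and 2 at 2721 and 3492, were the 4 lowest in the summed level of 10 granule cell markers, at 8936, 11373, 14675 and 19595. At the upper end they did not go together: 1 of the 6 libraries highest in the markers was among the 6 highest in Grm4, and WT-Veh replicates 3 and 4 and WT-Flx replicate 4, at 44697, 46012 and 46266, held 5662, 5617 and 5004. The summed level was 30114 to 58746 in HT-Flx, 30642 to 42245 in HT-Veh, 8936 to 46266 in WT-Flx and 14675 to 46012 in WT-Veh, and none of the 10 markers was at 0 in any library. Of these markers, 3 were higher and 1 lower in HT-Flx than in WT-Flx, beside 33.1% higher and 30.5% lower of all tested genes. The part of the markers in the Grm4 result was not tested.

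**Figure D5:**
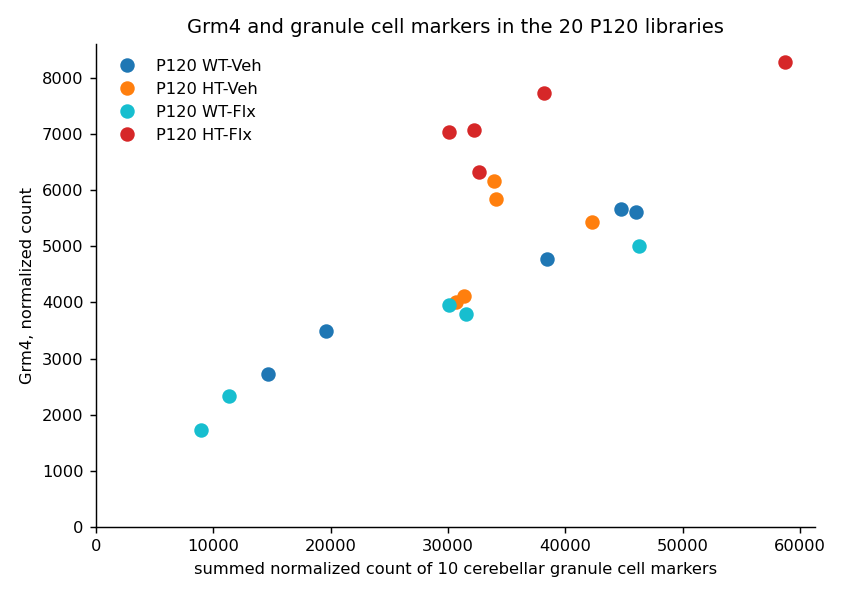
Normalized count of Grm4 (vertical axis, from 0) against the summed normalized count of 10 cerebellar granule cell markers (horizontal axis, from 0) in the 20 P120 libraries, coloured by group. The 4 libraries at 8936 to 19595 on the horizontal axis are the lowest in Grm4, and the 5 HT-Flx libraries, at 30114 to 58746, are the highest.

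The pathway around the receptors was read from 7 lists with 66 genes, of which 64 were tested between HT-Flx and WT-Flx. Of these, 28 were higher and 19 lower, with a median log2 difference of 0.16 beside 0.02 for all tested genes. Of all tested genes, 33.1% were higher and 30.5% lower, and the counts of the lists below stand beside the same shares. All pathway differences are as deposited, without the GC and length correction. Over all genes in this comparison, the median was 0.66 at a transcript GC content of at least 55% and -0.80 at 45% or below. The part of GC content in the pathway values was not tested. Of 9 postsynaptic scaffold genes, 4 were higher and 2 lower. Homer1, the scaffold that ties group I receptors to Shank proteins and internal calcium stores, was lower at 2158 ± 790 against 4929 ± 951 (SD, n = 5), a log2 difference of -1.25, together with Grm5. Shank3 and Shank1, which bind Homer, were higher, by 0.76 and 0.80 on the log2 scale, and so was Ncdn, whose product neurochondrin binds Grm5, by 0.91.

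Of 13 genes of the Gq pathway, 5 were higher and 5 lower. Gna11, a Gq-class alpha subunit, was 0.89 higher, and Plcb1, the phospholipase that Gq activates, was 1.06 lower on the log2 scale. Dagla and Daglb, which make the endocannabinoid 2-arachidonoylglycerol, were higher by 0.85 and 0.77. Of 16 genes of the Gi/o pathway, 9 were higher and 4 lower: the alpha subunit Gnai2 was 0.93 higher, while Gnai3 was 1.09, the gamma subunit Gng2 0.81 and the channel subunit Kcnj3 0.83 lower. In the values as deposited, members of a single signalling step thus lay on both sides, as the receptor genes did.

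Of 11 genes for desensitization and RGS proteins, 5 were higher and 4 lower, with the receptor kinase Grk2 and the arrestin Arrb1 higher by 0.92 and 0.90 and Rgs7, a GTPase activator for Gi/o, lower by 0.71. Of 5 presynaptic partners, 3 were higher and 1 lower, among them Elfn2, a postsynaptic protein that binds group III receptors, which was 0.80 higher. Of 6 genes of glutamate clearance, 2 were higher and 3 lower. The astrocyte transporters Slc1a2 and Slc1a3 were lower by 0.61 and 0.75, the cystine-glutamate exchanger Slc7a11 by 1.11, and Glul, the glutamine synthetase, was 0.36 higher. Slc1a2 and Slc1a3 are also among the astrocyte markers given with Grm3, so they are counted in both places. None of the 4 tested Grm6 partners passed. Between P10 and P120 in WT, 23 of 65 pathway genes rose and 17 fell, beside 28.9% and 29.4% of all genes, with Itpr1, the calcium store channel downstream of Gq, higher by 1.86 and Homer2 lower by 0.65; Itpr1 is also a Purkinje cell marker.

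The receptor genes were also set beside all other genes by their course over the 20 adult libraries, as Pearson correlations of log2 values among 14411 genes, given as a description with no test. The genes most like Grm2 were Gna11 (r = 0.99), Sema6b, Map3k10, Pdxp and Tmem63b, and those most like Grm5 were Dgkb (r = 0.99), Flrt2, Cacna2d1, Atp2b1 and Nexmif. For Grm3 they were Gucy1a1 (r = 0.98), Bbs4, Hdx, Diaph2 and Kcnb2, and for Grm7 Nrbp2 (r = 0.91), Tro, Zfp941, Mpv17 and Zfp180. Grm4 was most like Astn2 (r = 0.99), Tspan9, Kcnj12, Clec3b and Prph. Within the set, Grm3 and Grm5 were the most alike (r = 0.96, and 0.93 with group means removed), and Grm2 and Grm3, of the same group, ran opposite to each other (r = -0.73, and -0.38 with group means removed). All points share their libraries and with them the GC balance, so high values here are common.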

How the data were processed

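The deposited signal values are normalized counts per gene: per the labels and the methods, the authors quantified reads of a poly-A library with Salmon 1.1.0 on GRCm38 with GC bias correction, summed transcripts with tximport and normalized them with DESeq2 1.30.1. The values are not whole, all 30 libraries share a median-of-ratios size factor of 1.014, and read depth is unknown, so no count model was used. Of 19737 gene identifiers, 99.92% matched a symbol.

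Groups came from the labels. Each comparison was fitted with limma 3.58.1 in R 4.3.3 with an intensity trend, on log2(value + 1), over genes with a mean of at least 10, with Benjamini-Hochberg adjustment over all of them and a threshold of 0.05; fold changes on this scale understate changes of low genes. Single receptor genes also had a two-sided exact permutation test. Scripts were tested on simulated data. HT-Veh against WT-Veh used replicates 1, 3, 4 and 5, as the study lists. Transcript length and GC content are those of the longest coding transcript in GENCODE M21. The labels do not say whether libraries shared a litter or a preparation, so p-values measure the spread between these libraries. Counting strand is not given in the sources used here, and Grm2 and Grm7 share exon sequence with genes on the opposite strand (Gm28111, Gm20387), and Grm8 with Mir592.

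The text names every measured receptor gene, at most the 5 pathway genes of smallest p per list among those past the threshold, Arid1b, and the 5 genes most correlated with each receptor gene among those with a P120 mean of at least 50. The members and lists were chosen with earlier results of these data known. Alternatives were a pseudocount of 5, no filter, rescaling, a replicate block, other sample sets and each library left out. The GC and length correction and the sets without libraries low in granule cell markers were added after the data were seen. So were the sets without libraries against their labels, except for the interaction, where that set was planned. One gene of the family, and the genes most correlated with Grm8, are not reported here.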

Additional observations from a re-analysis of the deposited data

Results flagged for a closer look

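Of 36 sets of 5 libraries (6 receptor genes in 6 groups), 3 held a library set apart from the others by Dixon's criterion, which chance alone would meet in about 1 set in 20. Grm5 in P10 HT replicate 1 stood at 9395, above 6907 to 7539 in the others, and that library also had the lowest GC balance of the 30, at -1.02. Grm5 in P10 WT replicate 5 stood at 6469, below 6946 to 7121. Grm7 in WT-Flx replicate 4 stood at 1282, below 1659 to 1752, and that library was the highest of its group in granule cell markers, at 46266. The part of the GC balance and of the markers in these values was not tested.

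The fluoxetine difference differed between genotypes for 4 receptor genes by the interaction term of limma: 0.90 for Grm2, 0.98 for Grm4, -0.71 for Grm3 and -1.23 for Grm5 on the log2 scale, with adjusted p of 0.0365, 0.0415, 0.0419 and 0.0471. Of all genes, 27.3% passed. None of the 6 receptor genes passed with the GC and length correction, without the libraries against their labels, without those low in granule cell markers, or without any 1 of 9 single libraries. The HT-Flx libraries had a GC balance of 0.47 to 1.38 and the WT-Flx libraries one of -0.74 to -0.57.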

How the results depend on the processing

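The 6 receptor calls between HT-Flx and WT-Flx held with every library left out and with the replicate block. With the GC and length correction 6387 genes passed there, and with that correction and the block 5231 genes and 2 receptor genes. For HT-Flx against WT-Veh, 5 receptor genes passed with the block and with all P120 groups in 1 fit, and 0 with the GC correction, with or without the block; genes past the threshold went to 1776, 1703 with the block, and 2909 without the libraries low in granule cell markers. In the WT age comparison 3 receptor genes passed with the correction, with or without the block. The interaction gave 0 genes and 0 receptor genes with the correction, with or without the block, without the libraries low in granule cell markers, and without those against their labels. With the block alone, 7 genes passed at P10 (8 with the correction) and 1355 genes and 1 receptor gene (Grm5, limma adjusted p of 0.0484) between HT-Flx and HT-Veh (2 genes with the correction). In no comparison did every same-numbered pair correlate above 0.1 in its deviations from the group means (lowest -0.303, highest 0.407), and no label ties the numbers to a litter or day, so the numbers were not taken as pairs. For HT-Flx against HT-Veh, where the mean was 0.179, 3 of 5 HT-Flx libraries correlated best with the HT-Veh library of their own number. The same count, 3 of 5, held for HT against WT at P10, where the mean was 0.0429. This is a hint from the data and not from the design, and it is not particular to the fluoxetine comparison.

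Signs reversed only for differences that did not pass in the main comparison. In HT-Veh against WT-Veh, Grm5 was at -0.16 with all 5 and 5 libraries and with all P120 groups in 1 fit, Grm3 at 0.022 and Grm4 at -0.11 without the libraries low in granule cell markers, and Grm3 at 0.010 with the GC correction, with or without the block. With that correction Grm7 was at 0.055 in HT-Flx against HT-Veh, 0.0016 in HT-Flx against WT-Veh and 0.00016 for the interaction, and Grm4 at -0.040 in the HT age comparison, each the same with the block. Grm4 in the WT age comparison was at 0.062 without the libraries against their labels and 0.31 without those low in granule cell markers. The cause was not tested.

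Leaving out each library gave 3 to 8 genes at P10, 0 to 1 in HT-Veh against WT-Veh and in HT-Flx against HT-Veh, 0 to 1400 genes and 0 to 2 receptor genes in WT-Flx against WT-Veh (1400 without WT-Veh replicate 1), 2 to 6 receptor genes in HT-Flx against WT-Veh, and 0 to 7667 genes and 0 to 5 receptor genes for the interaction. At P10, Grm2 ranged from -0.012 to 0.032, Grm3 from -0.0097 to 0.062 and Grm8 from -0.047 to 0.034. In HT-Veh against WT-Veh, Grm2 ranged from -0.10 to 0.41, Grm3 from -0.24 to 0.071, Grm4 from -0.11 to 0.24, Grm5 from -0.27 to 0.32 and Grm8 from -0.30 to 0.038. Grm4 in the WT age comparison ranged from -0.11 to 0.15. Of all values of single receptor genes under the alternatives, 877 kept direction and side of the threshold, 87 lost the call, 20 gained it and 36 reversed.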
